A study of Mus musculus with 5 samples.

Results

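The 7 genes described here encode receptors for the colony-stimulating factors and 2 of their ligands: Csf1r, Csf1, Il34, Csf2ra, Csf2rb, Csf2rb2 and Csf3r. They were chosen by gene symbol among the 23420 genes of the deposited table, and all 7 were listed. Earlier results of these data were known when they were chosen. Colony-stimulating factors are secreted proteins that control the survival, proliferation and differentiation of myeloid cells. Microglia, the resident macrophages of the brain, depend on the receptor tyrosine kinase CSF1R, which binds CSF1, made largely by glia, and IL-34, made largely by neurons. The receptor for CSF2 pairs an alpha chain (Csf2ra) with a common beta chain (Csf2rb) and signals through JAK2 and STAT5. The CSF3 receptor (Csf3r) is best known in neutrophils and signals to a large extent through STAT3.

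Each of the 5 libraries held polyA RNA of CD11b-positive, propidium iodide-negative forebrain cells from a pool of 2 to 4 mouse pups at postnatal day 8. In 3 libraries the pups carried floxed Stat3 alleles and a tamoxifen-inducible Cre recombinase at 1 Cx3cr1 allele (Cx3cr1CreERT2/+ with Stat3 fl/fl). In 2 libraries they were littermates with Stat3 fl/fl and no Cre. The labels give daily tamoxifen on postnatal days 1 to 3 for the mice with Cre. No tamoxifen days are recorded for the controls, so tamoxifen may differ between the groups too. Both groups carry the floxed Stat3 alleles, and the groups differ in Cre and in 1 disrupted copy of Cx3cr1 as well as in Stat3 loss. Pools held both sexes, and Cx3cr1 is active in some monocytes and border macrophages besides microglia. The comparison asks how loss of STAT3, a signal transducer of cytokine receptors, in these cells bears on the early postnatal forebrain. Values are on a log scale, read here as log2 expression centred per gene on a value outside the table (both inferred from the values). Differences between libraries can therefore be read, and levels of different genes cannot be compared.

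Stat3 itself showed no lower level in the knockout-labelled libraries (log2 difference 0.17, SE 0.42, limma adjusted p = 0.947), and its sign turned under 4 alternatives given in the closing section. A value per gene can include exons outside the floxed part and then checks the labels weakly, so directions are given for the libraries labelled knockout. Cx3cr1, which has 1 disrupted copy in the mice with Cre, differed by -0.90 (SE 0.37, limma adjusted p = 0.638). Each library labelled knockout lay below both controls for Cx3cr1, as in 7.06% of tested genes. All 13 microglia markers other than Csf1r lay above the centre in every library, with library means from 2.53 to 2.76. So did 2 of the 8 tested border macrophage markers, Mrc1 and Stab1. Of 13 neuron markers 10 lay at the value given to 0 reads in at least 4 libraries. Glial markers were less often at that value: 7 of 9 astrocyte markers and 3 of 10 oligodendrocyte lineage markers were tested. The depth of each library is unknown. Median values of the tested genes ran from 0.17 to 0.24 in the knockout-labelled libraries and were -0.16 and 0.08 in control replicates 1 and 2. The median difference of the 9400 tested genes was 0.14 on the log2 scale, and 60% of differences were above 0.

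In all, 6 of the 7 genes passed the filter on low values and Il34 did not. With limma and Benjamini-Hochberg adjustment at 0.05, 0 of the 6 were past the threshold, against 0% of all tested genes in each direction. At an unadjusted p under 0.05 the count was also 0 of 6, against 7.7% of tested genes (724). With limma's trend and robust estimation 0 genes passed and 680 had an unadjusted p under 0.05. The log2 difference, libraries labelled knockout minus control, was above 0 for 5 genes and below 0 for Csf1r. The median of the 6 differences was 0.35, or 0.22 above that of all tested genes. Leaving out knockout replicate 2 brought this median to 0.20, leaving out knockout replicate 3 to 0.65, and centring libraries on their median to 0.11. Csf2ra was the 1 gene of 6 that lay above both controls in each library labelled knockout, against 17.2% of tested genes, and 0 of 6 lay below both, against 7.06%. With 3 libraries against 2, an exact permutation test over the 10 arrangements cannot give a p below 0.1.

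**Figure D1:**
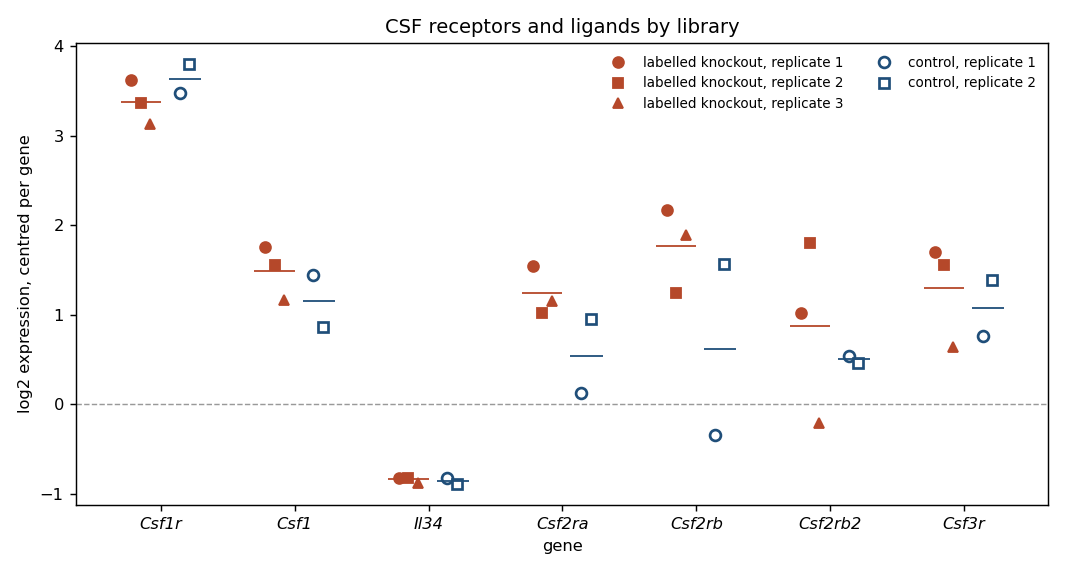
Log2 expression centred per gene (vertical axis) of the 7 genes in each library, filled red for the 3 libraries labelled knockout and open blue for the 2 controls, with lines at the group means. Csf1r stands between 3.13 and 3.79 in all libraries, Il34 stays at its 0-read value, and Csf2rb and Csf2rb2 have the widest ranges.

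Csf1r, the receptor on which microglial survival depends, had the smallest range over the libraries of the 6 tested genes. It lies on chromosome 18 from 61100598 to 61132149 (GRCm38, plus strand). Csf1r stood at 3.62, 3.36 and 3.13 in the knockout-labelled libraries, against 3.48 and 3.79 in the controls. The groups overlap: the highest and the lowest library differ by 0.66, a range smaller than that of most tested genes (15.7% had a smaller one). Group means came to 3.37 ± 0.25 (SD, n = 3) and 3.64 ± 0.22 (SD, n = 2). The log2 difference of -0.26 had an SE of 0.38 and a 95% interval from -1.12 to 0.59, and limma gave an adjusted p of 0.879. Leaving out control replicate 1 gave -0.42 and leaving out control replicate 2 gave -0.10, and the difference was -0.51 after median centring of libraries and -0.04 after quantile normalization. In bulk RNA, fewer cells of a type and less RNA per cell cannot be told apart.

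Part of the Csf1r transcript is shared with a gene on the other strand. Hmgxb3, which encodes an HMG-box protein and is named for this overlap, after its values were seen, overlaps the Csf1r locus on the minus strand in GENCODE M21. Of 4662 windows of 40 bases, the read length, along the Csf1r transcript with the longest coding sequence, 834 (17.9%) also occur in Hmgxb3 transcripts. The library kit does not mark strand, so reads from these windows cannot be told apart. Hmgxb3 stood at 2.87, 3.09 and 2.85 in the knockout-labelled libraries, against 3.61 and 3.47 in the controls, also far above the centre. Each library labelled knockout lay below both controls, as in 7.06% of tested genes. The log2 difference of Hmgxb3 was -0.61 (SE 0.36, limma adjusted p = 0.752). Whether reads of one gene were counted for the other was not tested.

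Of the 2 ligands of CSF1R, Csf1 was measured in all libraries and Il34 was at its 0-read value in all of them. Csf1, on chromosome 3 from 107741048 to 107760469 (minus strand), stood at 1.76, 1.55 and 1.17 in the knockout-labelled libraries, against 1.45 and 0.86 in the controls. Control replicate 1 lies within the range of the other group and control replicate 2 below it. Group means came to 1.49 ± 0.30 (SD, n = 3) and 1.15 ± 0.41 (SD, n = 2). The difference on the log2 scale was 0.34, with SE 0.40, a 95% interval from -0.57 to 1.24 and a limma adjusted p of 0.836. Leaving out control replicate 2 gave 0.04, leaving out control replicate 1 gave 0.63, and the difference was 0.09 with libraries centred on their median. Of 4137 windows of 40 bases in the Csf1 transcript, 0 occur in another gene.

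Il34, on chromosome 8 from 110741829 to 110805924 (minus strand), followed the pattern that genes without reads show across the 5 libraries. Il34 stood at -0.82, -0.82 and -0.87 in the knockout-labelled libraries, against -0.82 and -0.88 in the controls. A range of 0.07 across libraries comes with that pattern, so no difference was computed. At an unknown depth the absence of reads gives no upper limit. Of the 13 neuron markers, 6 also lay at that value in all 5 libraries.

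The sequences of Csf2rb and Csf2rb2 are shown next because they set how far the 2 beta chain genes can be told apart. Csf2rb encodes the common beta chain used by the receptors for CSF2, IL-3 and IL-5, and Csf2rb2 a second beta chain, found in the mouse, that pairs with the IL-3 receptor alpha chain. They lie on chromosome 15, Csf2rb from 78325752 to 78353847 on the plus strand and Csf2rb2 from 78282507 to 78305721 on the minus strand, with 20 kb between their 5′ ends. Of 2628 aligned coding bases, 2503 (95.2%) were identical. Of 2649 windows of 40 bases in the Csf2rb coding sequence, 858 (32.4%) occur letter for letter in that of Csf2rb2. Identity in aligned windows ran from 72.5% to 100%, with a median of 97.5%. The longest identical stretch is 242 bases long and lies within 1 exon of each gene, at chr15:78348577-78348818 (plus strand) in Csf2rb and chr15:78284630-78284871 (minus strand) in Csf2rb2. A read of 40 bases from this stretch fits both genes equally well:
Csf2rb and Csf2rb2: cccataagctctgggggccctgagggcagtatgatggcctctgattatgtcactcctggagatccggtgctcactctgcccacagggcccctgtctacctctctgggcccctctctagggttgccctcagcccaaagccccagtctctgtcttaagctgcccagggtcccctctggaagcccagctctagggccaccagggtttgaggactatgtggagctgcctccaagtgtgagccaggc

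The window of 80 bases within 1 exon that differs most holds 15 differences, marked by capitals. It lies in exon 5 of Csf2rb at chr15:78338907-78338986 (plus strand) and in exon 4 of Csf2rb2 at chr15:78294345-78294424 (minus strand), and reads from it can be placed. Sequences are from GENCODE M21 transcripts on GRCm38, 5′ to 3′:
Csf2rb: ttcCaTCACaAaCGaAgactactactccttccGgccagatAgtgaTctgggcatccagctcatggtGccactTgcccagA
Csf2rb2: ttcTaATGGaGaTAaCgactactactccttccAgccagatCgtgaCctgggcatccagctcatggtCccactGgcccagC

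**Figure D2:**
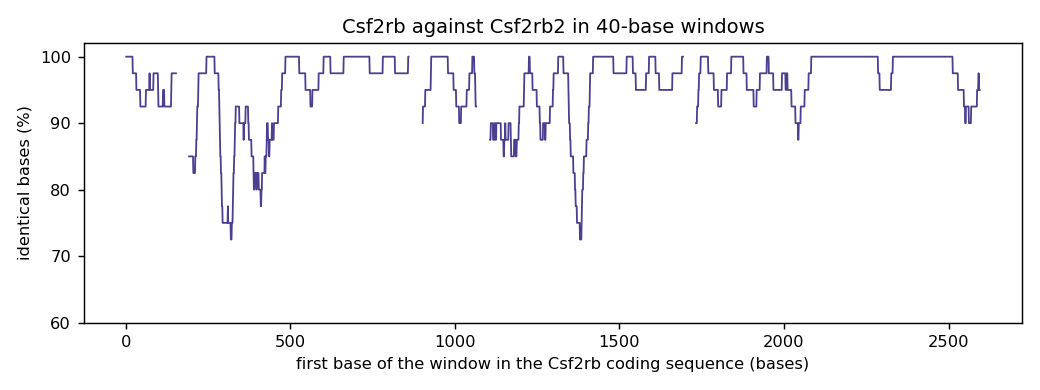
Share of identical bases (vertical axis, percent) between Csf2rb and Csf2rb2 in aligned windows of 40 bases, by the first base of the window along the Csf2rb coding sequence (horizontal axis, bases), with gaps where the alignment has gaps. Windows run from 72.5% to 100%, and the longest flat stretch at 100%, toward the right, holds the printed 242 bases.

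Csf2rb had the largest difference of the set and rested on 1 control library. Csf2rb stood at 2.17, 1.24 and 1.89 in the knockout-labelled libraries, against -0.34 and 1.57 in the controls. Control replicate 2 lies among the libraries labelled knockout and above replicate 2 of them, while control replicate 1 lies far below every other library. Group means came to 1.77 ± 0.48 (SD, n = 3) and 0.62 ± 1.35 (SD, n = 2). The log2 difference of 1.15 had an SE of 0.59 and a 95% interval from -0.18 to 2.48, and limma gave an adjusted p of 0.703. Without control replicate 1 it was 0.20, and without control replicate 2 it was 2.11. Whether control replicate 1 had any Csf2rb reads cannot be told from its value. Its range of 2.51 over the libraries was wider than that of 98.3% of tested genes.

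Csf2rb2 did not follow Csf2rb across the libraries. Csf2rb2 stood at 1.01, 1.81 and -0.20 in the knockout-labelled libraries, against 0.54 and 0.46 in the controls. The 2 controls lie close together, and the libraries labelled knockout spread to both sides of them. Group means came to 0.87 ± 1.01 (SD, n = 3) and 0.50 ± 0.06 (SD, n = 2). The difference on the log2 scale was 0.37, with SE 0.57, a 95% interval from -0.92 to 1.66 and a limma adjusted p of 0.891. It turned to -0.10 without knockout replicate 2 and was 0.91 without knockout replicate 3. The value of Csf2rb minus that of Csf2rb2 was 1.16, -0.56 and 2.10 in the knockout-labelled libraries and -0.88 and 1.11 in the controls. Each gene has its own centre, so only changes of this contrast between libraries can be read, and its sign cannot. Knockout replicate 3 was highest in this contrast and lowest in Csf2rb2, and control replicate 1 was lowest in it and in Csf2rb. How reads that fit both genes were counted is not given in the sources used here, so both values are uncertain.

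Csf2ra, the alpha chain that gives the CSF2 receptor its specificity, lay above both controls in each library labelled knockout. It was the 1 gene of the 6 to do so, a share near the 17.2% of all tested genes. It lies on chromosome 19 from 61223957 to 61228429 (minus strand), and 0.663% of its 40-base windows occur in another gene. Csf2ra stood at 1.54, 1.02 and 1.16 in the knockout-labelled libraries, against 0.13 and 0.96 in the controls. The gap between the groups is narrow, since control replicate 2 lies just under knockout replicate 2, and control replicate 1 is again the lowest. Group means came to 1.24 ± 0.27 (SD, n = 3) and 0.54 ± 0.59 (SD, n = 2). The difference on the log2 scale was 0.70, with SE 0.41, a 95% interval from -0.24 to 1.64 and a limma adjusted p of 0.752. Without control replicate 1 it was 0.28, and without control replicate 2 it was 1.11. The exact two-sided permutation p was 0.1, the smallest that 3 against 2 libraries allow.

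Csf3r, the receptor for the granulocyte factor CSF3, lies on chromosome 4 from 126024550 to 126044440 (plus strand). Csf3r stood at 1.70, 1.56 and 0.64 in the knockout-labelled libraries, against 0.77 and 1.39 in the controls. Both controls lie within the range of the other group. Group means came to 1.30 ± 0.58 (SD, n = 3) and 1.08 ± 0.44 (SD, n = 2). The difference on the log2 scale was 0.22, with SE 0.46, a 95% interval from -0.81 to 1.26 and a limma adjusted p of 0.916. It turned to -0.08 without control replicate 1 and to -0.02 with libraries centred on their median, and was 0.55 without knockout replicate 3. Of its 40-base windows 17.6% occur in other genes, most of them in AC105061.2.

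**Figure D3:**
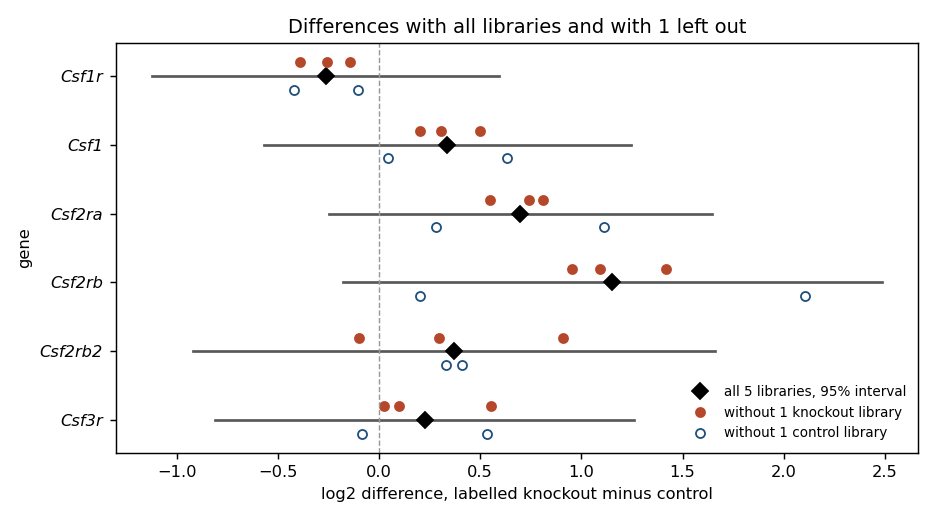
Log2 difference, libraries labelled knockout minus control (horizontal axis), for the 6 tested genes, with the limma estimate and 95% interval from all 5 libraries (black), and the estimate without 1 knockout library (red) or 1 control library (open blue). Each interval includes 0, and the 2 open points of Csf2rb lie farthest apart, at 0.20 and 2.11.

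The libraries that held the extreme values were the same for several genes of the set. Knockout replicate 3 was the lowest library for Csf1r, Csf2rb2 and Csf3r, and control replicate 1 for Csf2ra and Csf2rb. Over all tested genes, 19.1% were lowest in knockout replicate 3, 23.7% in control replicate 1 and 35.5% in control replicate 2, which was lowest for 1 of the 6, Csf1. Knockout replicate 1 was the highest library for 4 of the 6, against 24.5% of tested genes. Root mean square distance between profiles, each centred on its own mean over the 5 libraries, was 0.35 between Csf1r and Csf3r and 1.13 between Csf2rb and Csf2rb2, the smallest and the largest of the 15 pairs. Csf2ra and Csf2rb, the 2 chains of the CSF2 receptor, were 0.44 apart.

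By the same distance, the gene nearest to Csf2rb was Axl, a receptor tyrosine kinase of phagocytes, at 0.08. Axl stood at 1.94, 1.20 and 1.83 in the knockout-labelled libraries, against -0.41 and 1.59 in the controls, the same order of libraries as Csf2rb. Cenpf and Arpc3 came next, at 0.17 each, and 7 genes in all lay within 0.2. Copb2, a coatomer subunit gene, was the 1 gene within 0.2 of Csf2rb2, at 0.17, and Slc35e1 and Gcn1l1 followed at 0.22 each. Profiles like the other genes were common. Within 0.2 lay 277 genes for Csf1r (nearest Rnf126, Rnf123 and Man1c1, at 0.04 to 0.06), 207 for Csf1 (Rad21, Slc24a3 and Erf, at 0.05 to 0.07), 134 for Csf2ra (C230081A13Rik, C2cd2l and Atrip, at 0.04 to 0.09) and 152 for Csf3r (Golgb1, Pja2 and Rabep1, at 0.05 to 0.07).

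Ligands of the CSF2 and CSF3 receptors lay at or near the value given to 0 reads. Csf2 was listed at exactly 0 in all libraries, as were Il3, Il5ra and Sdc1, a syndecan that can bind IL-34. Csf3 lay at the 0-read value in 4 libraries and at 0.51 in knockout replicate 2. Flt3, a relative of Csf1r that marks dendritic cells and progenitors, lay at that value except in knockout replicate 1, at 1.27. Of 15 other cytokines and receptors of these families, 4 were tested, with 1 difference above 0 and 3 below, and 0 passed. Il3ra, the IL-3 receptor alpha chain, stood at 0.84, 0.83 and 0.34 in the knockout-labelled libraries, against -0.24 and 1.03 in the controls, with a log2 difference of 0.28 that turned to -0.35 without control replicate 1. The other 3 were Pdgfrb at -0.37, Trem2 (chosen after its values were seen) at -0.24 and Ptprz1, a receptor for IL-34 on neural cells, at -0.06. Pdgfrb and Ptprz1 each lay at the 0-read value in 3 libraries. The median of these 4 differences was -0.15. Leaving out control replicate 1 brought it to -0.52, and leaving out control replicate 2 turned it to 0.36.

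Among 30 genes of CSF1R proximal signalling, all of which were tested, 17 differences were above 0 and 13 below, and 0 passed. Fgr and Dok2 passed the filter only through libraries labelled knockout, so their differences had to be above 0. The count above 0 and the list median include both genes. The list median was 0.17, or 0.04 above that of all tested genes, and it turned to -0.07 with libraries centred on their median. Leaving out knockout replicate 1 brought it to 0.05, and leaving out knockout replicate 3 to 0.32. Tyrobp, the adaptor DAP12, stood at 2.87, 2.74 and 2.82 in the knockout-labelled libraries, against 2.52 and 2.19 in the controls. In the list 2 of 30 genes, Tyrobp and Dok2, lay above both controls in each of these libraries, against 17.2% of tested genes. For Dok2, knockout replicate 1 and both controls lay at the 0-read value, whose pattern is highest in knockout replicate 1. Its place above both controls therefore carries no weight, and the 17.2% also includes such genes. Pik3r1 was the 1 gene below both, against 7.06%. Dok2, Fgr and Pik3r1 were named after their values were seen. Tyrobp had a log2 difference of 0.46 (SE 0.36, limma adjusted p = 0.782). Inpp5d, the lipid phosphatase SHIP1, averaged 2.35 ± 0.15 (SD, n = 3) and 2.35 ± 0.36 (SD, n = 2). The catalytic subunit gene Pik3cg (0.73) and the regulatory subunit gene Pik3r5 (-0.62), both of phosphoinositide 3-kinase gamma, had the smallest p of the list and opposite signs. The adaptor Grb2 differed by -0.07, the ubiquitin ligase Cbl by -0.10 and the kinase subunit Pik3cd by 0.29.

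In the JAK2-STAT5 arm used by the CSF2 and CSF3 receptors, 15 of 21 genes were tested, with 10 differences above 0 and 5 below, and 0 passed. Usp18, named after its values were seen, passed the filter only through libraries labelled knockout. Its difference had to be above 0, and the count above 0 and the list median include it. The list median was 0.17, or 0.03 above that of all tested genes. It turned to -0.08 with libraries centred on their median, to -0.01 with quantile normalization and to -0.08 without knockout replicate 1. Stat5b stood at 0.55, 0.54 and 1.40 in the knockout-labelled libraries, against -0.15 and 0.12 in the controls. These groups did not overlap, in 1 of the 15 genes against 17.2% of tested genes, with a log2 difference of 0.85 (SE 0.42, limma adjusted p = 0.693), while Stat5a differed by -0.57. The kinase gene Jak2 stood at 0.17, 0.17 and 0.10 in the knockout-labelled libraries, between control replicate 1 at 0.89 and control replicate 2 at -0.48. Its difference of -0.06 turned to 0.62 without control replicate 1. Cish and Socs2, feedback inhibitors induced by STAT5, lay at the 0-read value in all 5 libraries. Socs3, a feedback inhibitor induced by STAT3, stood at 1.74, 0.03 and -0.66 in the knockout-labelled libraries, against 1.97 and 0.65 in the controls, with a log2 difference of -0.94 (SE 0.71, limma adjusted p = 0.776). Bcl2l1, which encodes the survival protein BCL-XL, differed by 0.65.

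Among transcription factors of Csf1r and the myeloid lineage, 16 of 19 were tested, with 8 differences above 0 and 8 below, and 0 passed. Cebpe, named after its values were seen, passed the filter only through libraries labelled knockout. Its difference therefore had to be above 0, and the count above 0 and the list median include it. The list median was 0.01, or 0.12 below that of all tested genes. Spi1, which encodes PU.1 and is named Sfpi1 in the table, stood at 3.22, 2.04 and 3.02 in the knockout-labelled libraries, against 3.06 and 3.31 in the controls, where only knockout replicate 2 stands apart. Runx1 stood at 2.71, 1.85 and 1.34 in the knockout-labelled libraries, against -0.57 and 2.42 in the controls, so control replicate 1 was lowest here as in Csf2rb. Cebpa, Irf8 and Cebpb differed by -0.15, -0.05 and 0.41. Mef2a at 0.98 and Ets2 at 1.07 were the 2 of 16 genes above both controls in each library labelled knockout, against 17.2% of tested genes, with limma adjusted p-values of 0.615 and 0.618.

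**Figure D4:**
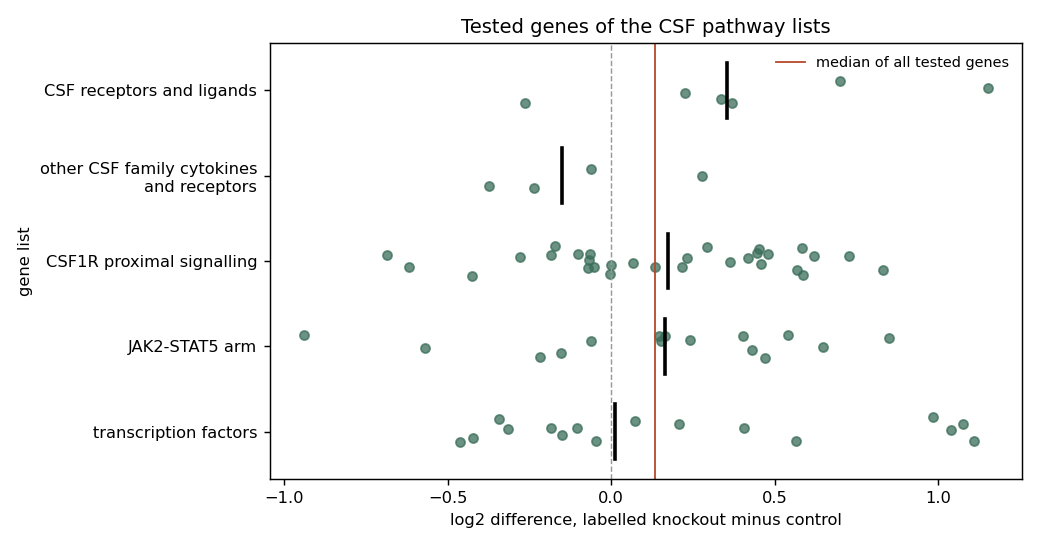
Log2 difference, libraries labelled knockout minus control (horizontal axis), of the tested genes in 5 lists, 1 point a gene, with a black bar at each list's median and a red line at the median of all tested genes (0.14). The list medians run from -0.15 to 0.35, the lowest of which turns to 0.36 without control replicate 2, and no point passed the limma threshold.

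Neutrophils, monocytes and border macrophages also carry CD11b, and receptors of this set are known in them. The 6 tested neutrophil markers other than Csf3r, of a list of 13, averaged 1.37, 0.55 and 1.34 in the knockout-labelled libraries and 0.07 and 0.10 in the controls. Elane was listed at 0 in all libraries, and Camp, Mpo, Lcn2 and Cxcr2 lay at the 0-read value in 4. The 6 tested monocyte markers, of a list of 12, averaged 1.12, 0.42 and 0.61 in the knockout-labelled libraries and -0.10 and 0.02 in the controls, and Ly6c2, Cd177 and Chi3l3 were listed at 0. The 8 tested border macrophage markers, of a list of 10, averaged 0.89, 1.00 and 1.33 in the knockout-labelled libraries and 0.52 and 0.71 in the controls. Both controls lay at the 0-read value for S100a8, Mmp8, Plac8, Lyve1 and Cbr2. They stood at -0.33 and -0.37 for S100a9 and at -0.14 and -0.15 for Ccr2, but at 1.23 and 0.31 for Ngp. Differences were below 0 for 1 tested neutrophil marker, Retnlg (-0.07), and for 2 border macrophage markers, F13a1 (-0.21) and Mrc1 (-0.16). Of the monocyte markers, 0 were below. Ngp and these 3 genes were named after their values were seen. Markers that passed the filter only through the knockout-labelled libraries had to average higher there, so the 3 sets of means are a description and support no difference. Knockout replicate 1, with a neutrophil mean of 1.37, had the highest Csf3r value, and knockout replicate 3, with 1.34, had the lowest. The part of these cells in the values of Csf2ra, Csf2rb and Csf3r was not tested.

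RefSeq promoters (GRCm38.p6) were at hand for 4 of the 7 genes: Csf1, Csf2ra, Csf2rb2 and Csf3r, and not for Csf1r, Csf2rb and Il34. The motif TTCNNNGAA, the core to which STAT dimers bind and which reads the same on both strands, was searched in the window from 250 bases before to 50 after each start. Csf2rb2 held 1 match, and the other 3 held none. Over all 32851 promoters of that length, 8.3% held the motif. The 250 bases upstream of the Csf2rb2 start (chr15:78305722-78305971, minus strand) are shown because they hold that match, in capitals, 15 to 7 bases before the start:
Csf2rb2 promoter: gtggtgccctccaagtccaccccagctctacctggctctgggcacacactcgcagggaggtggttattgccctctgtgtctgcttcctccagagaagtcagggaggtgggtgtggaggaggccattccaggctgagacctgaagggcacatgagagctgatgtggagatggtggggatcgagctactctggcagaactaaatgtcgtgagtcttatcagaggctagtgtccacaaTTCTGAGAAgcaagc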

How the data were processed

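The polyA library kit does not mark strand, and reads were 40 bases long, per the labels' protocols. The authors deposited 1 table of log2-scale values per gene for 5 libraries. The submitters' processing notes name TopHat2 2.0.13, DESeq2 and GRCm38 (mm10), with no roles. Not given in the sources used here are the read counter, the annotation and the depth of single libraries. The values resemble a regularized log, which shrinks differences of low genes; this and the base of the logarithm are inferred. A gene without reads takes a fixed pattern over the libraries, recognised within 2% of its span. Of 23420 listed genes, 6970 were exactly 0, 4461 lay on that pattern in 5 libraries and 2562 in 4, and 27 names had become numbers in a spreadsheet. The other 9400 were fitted with limma 3.58.1 (R 4.3.3, all 5 libraries, no covariate) and adjusted by Benjamini-Hochberg over all of them, with a threshold of 0.05.

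Libraries are pools of pups, and p-values measure the spread between these pools. Intervals are at 95%. Named genes are the 7 genes, Stat3, Cx3cr1, genes picked by role from each pathway list, the 2 of each list with the smallest p, and the 3 genes nearest to each tested gene. The genes and lists were chosen with earlier results of these data known. Alternatives were no filter, libraries centred on their median, quantile normalization, each library left out, a replicate block, and limma with trend and robust estimation. Scripts were tested on simulated data. Sequences were read with Biopython 1.88 from GENCODE M21 and RefSeq. All columns of values were used.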

Additional observations from a re-analysis of the deposited data

How the results depend on the processing

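Of the 6 tested genes of the set, Csf1, Csf1r, Csf2ra and Csf2rb kept the sign of their log2 difference under every alternative run, and 0 of the 6 passed the threshold under any of them. Csf2rb2 turned to -0.097 without knockout replicate 2, and leaving out each library gave up to 0.909. Csf3r turned to -0.021 with libraries centred on their median and to -0.085 without control replicate 1, and leaving out each library gave up to 0.554. Stat3 turned to -0.080 with libraries centred on their median, -0.024 with quantile normalization, -0.103 without knockout replicate 1 and -0.018 without control replicate 1, with 0.349 as the highest value without 1 library. Without control replicate 1, Jak2 turned to 0.623 and Il3ra to -0.354, against -0.746 and 0.913 without control replicate 2. Without the filter on low values 1 gene of 16423 was lower with an adjusted p of 0.00853, against 0 with it; this gene is Sord (log2 difference -2.02), named after its value was seen. With libraries centred on their median, the median of all tested genes was -0.11 in place of 0.14, and that of CSF1R proximal signalling was -0.071. The median of the transcription factor list was -0.233 in that setting and 0.268 without knockout replicate 3, and leaving out each library gave 0.009 to 0.268. The cause was not tested.

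Replicate numbers gave no sign of pairing: the correlations of same-numbered deviations were 0.00233 and -0.067. With 2 controls, the deviations of one mirror those of the other, so these are not 2 independent checks and cannot exclude a pairing. A fit with the replicate number as a block, in which knockout replicate 3 has no partner and adds nothing to the difference, gave a median of 0.268 for the transcription factors and changed no call. Il34 had no fit. Depth is unknown, and shrinkage, which was inferred, would understate differences of genes with few reads. With 2 controls, control replicate 1 alone moved the difference of Csf2rb from 1.15 to 0.20.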
